A study of Mus musculus with 3 samples.

Results

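The axon guidance ligands and receptors were taken by gene symbol from a count table of single sorted mouse cones: semaphorins, plexins, neuropilins, ephrins, Eph receptors, Slits, Robos, netrins and Unc5 receptors. They are 67 of the 31053 genes in the table, and 65 of them had at least 1 count. The cells were GFP-positive cones sorted by FACS, with a viability dye, from papain-dissociated retina at a labelled age of postnatal day 12. The 3 lines were wildtype with the Chrnb4-GFP reporter, Cnga3-/- and Pde6ccpfl1, and the libraries of the 2 mutant lines also carry GFP in their names. Cnga3 encodes a subunit of the cone cyclic nucleotide-gated channel, and Pde6c encodes the catalytic subunit of the cone phosphodiesterase. Each line has 1 plate of single cells and so 1 library, and nothing says how many animals were used. No comparison therefore has a replicate, and no p-value was computed. Ratios of CPM (counts scaled to the same library total) carry exact 95% intervals that cover counting error only. The column names hold a tag that differs between the plates (P11 for wildtype, P08 for Cnga3-/- and P10 for Pde6ccpfl1). Its meaning is not stated, and genotype, plate and tag cannot be told apart.

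These families steer growing axons and dendrites, and many of them act on cell adhesion, migration and synapse placement too. Semaphorins signal through plexins, the secreted class 3 members with neuropilins as co-receptors. Ephrins sit in the membrane of one cell and bind Eph receptor tyrosine kinases on its neighbour, and signals can pass into both cells. Slits are secreted repellents for Robo receptors, and netrins act through receptors that include the Unc5 family. In the retina, ephrins and Eph receptors are best known for the mapping of ganglion cell axons, and the class 5 and 6 semaphorins for the layering of the plexiform layers.

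The Eph receptor Epha10 and the ephrin Efna4 were the members at least 2-fold higher in both mutant libraries than in wildtype, among those with enough counts to be compared. Of all compared genes, 11.2% were at least 2-fold higher in Cnga3-/- and 10.2% in Pde6ccpfl1. Efna4 could be compared only through the mutant libraries, in which it is high, so a higher value was built into its choice. The promoter windows of Epha10 and Efna4 are shown because of these calls, from 250 bases before to 50 bases after the RefSeq start (GRCm38.p6). Epha10 lies at chr4:124881535-124881834 on the plus strand and Efna4 at chr3:89337979-89338278 on the minus strand, and each is written 5′ to 3′ with GC boxes (GGGCGG on either strand) in capitals.
Epha10: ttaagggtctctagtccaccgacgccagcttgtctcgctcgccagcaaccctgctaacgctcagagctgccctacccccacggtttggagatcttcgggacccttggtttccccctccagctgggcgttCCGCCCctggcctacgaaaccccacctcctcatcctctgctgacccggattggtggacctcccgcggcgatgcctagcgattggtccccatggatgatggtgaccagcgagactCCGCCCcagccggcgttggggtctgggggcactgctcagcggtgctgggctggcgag
Efna4: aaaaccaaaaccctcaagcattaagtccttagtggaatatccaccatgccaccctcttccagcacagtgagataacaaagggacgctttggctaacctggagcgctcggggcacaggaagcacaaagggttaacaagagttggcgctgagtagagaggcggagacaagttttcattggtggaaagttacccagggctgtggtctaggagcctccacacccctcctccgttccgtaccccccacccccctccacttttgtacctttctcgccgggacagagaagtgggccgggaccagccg
The Epha10 window holds 2 GC boxes and 65.3% G and C, and the Efna4 window holds none and 55.7%. A GC box was in 35.7% of all 32851 windows and in 70.3% of the 74 windows of the 58 members that matched RefSeq. The member windows also held more G and C, with a median of 64.2% against 52.7% in all windows. Whether the GC box share goes beyond this difference was not tested. The core motif of the photoreceptor factor Crx (TAATCC, both strands) was in 7.06% of all windows and in neither of these.

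The libraries held 273080 counts in 52 kept wildtype wells, 335499 in 70 kept Cnga3-/- wells and 295011 in 61 kept Pde6ccpfl1 wells. The median well had 4895, 4056.5 and 3796 counts, and a median of 8, 8 and 7 members with a count. Counts of 12 cone markers summed to 51 in wildtype, 254 in Cnga3-/- and 225 in Pde6ccpfl1, which is 4.05-fold (2.99 to 5.59) and 4.08-fold (3.00 to 5.65) higher in CPM in the mutant libraries. Opn1sw, Gnat2, Gngt2, Pde6c and Cngb3 had no count in wildtype, so the labelled cell type rests on few counts there. The 12 rod markers summed to 115, 300 and 221 counts and the 8 markers of Muller glia to 52, 40 and 25. The 7 markers of horizontal cells summed to 122, 111 and 118, the highest raw sum of the 11 marker sets in wildtype. Per kilobase of exon the 6 markers of pigment epithelium were higher there, at 10.4 CPM against 8.49. Single wells held 28 of the 122 horizontal and 22 of the 57 pigment epithelium counts in wildtype.

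Counts also followed the well position. Over the 43 positions kept in all 3 plates, 979 of the 1175 genes with at least 20 counts in each library (83.3%) had their highest well at the same position in all 3 plates. Sema6d, Epha10 and Robo1 are the 3 members with that many counts, and all 3 did so. With at least 10 counts in each library it was 1791 of 2365 genes (75.7%) and 10 of 13 members. Robo1 peaked at B09, with 35 counts in the wildtype plate, 31 in the Cnga3-/- plate and 61 in the Pde6ccpfl1 plate. Sema6d peaked at D06 with 40, 26 and 19. In the 2 mutant plates Epha10 (118 and 98 counts) and Efna4 (28 and 36) peaked at E02, a position with no wildtype well in the table used here. At F12, the highest Epha10 well of wildtype, the plates held 15, 22 and 18 counts. The cause was not tested, nor was it tested whether the 3 plates share reads. All ratios and shares of wells treat the plates as separate, and their intervals take no account of this pattern. Each leading ratio is given below over the 43 shared positions too, an alternative chosen after seeing the data.

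**Figure D1:**
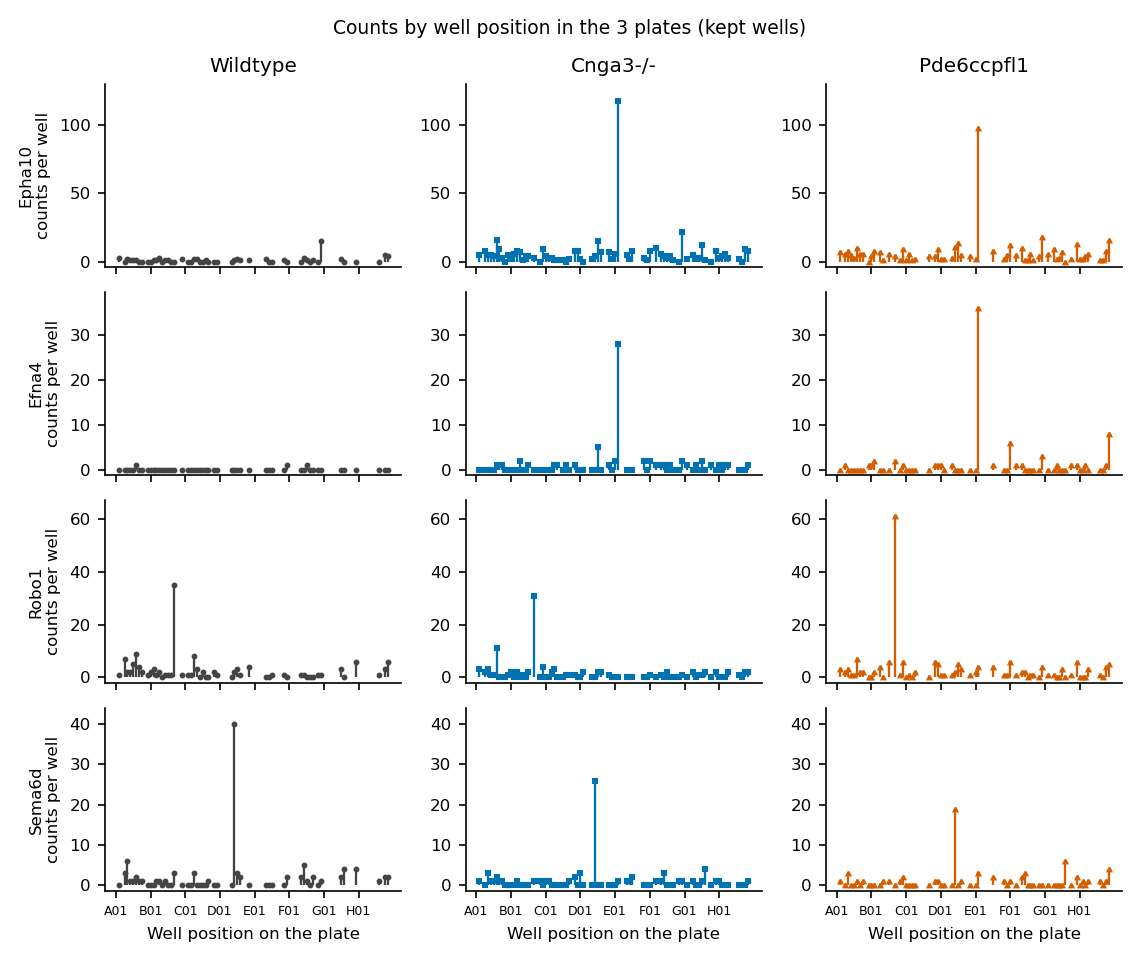
Counts per kept well (y axis) against well position on the plate in row order (x axis) for Epha10, Efna4, Robo1 and Sema6d (rows) in the wildtype, Cnga3-/- and Pde6ccpfl1 plates (columns), with 1 symbol per well. The highest Robo1 well was B09 and the highest Sema6d well D06 in each plate, and the highest Epha10 and Efna4 wells were at E02 in both mutant plates.

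Members took 0.302% of the wildtype counts, 0.385% of the Cnga3-/- counts and 0.407% of the Pde6ccpfl1 counts. Counts per member were low: 2 had none (Efna2 and Efna3), 15 had 1 to 9, 36 had 10 to 49, 10 had 50 to 99 and 4 had 100 or more over the 3 libraries. The 4 were Epha10, Robo1, Sema6d and Efna4, with 35.8%, 52.2% and 60.9% of all member counts in wildtype, Cnga3-/- and Pde6ccpfl1. Summed over all members, the mutant libraries were higher than wildtype by 1.27-fold (1.17 to 1.39) in Cnga3-/- and 1.35-fold (1.23 to 1.47) in Pde6ccpfl1. Without those 4 members the ratios were 0.948 (0.842 to 1.07) and 0.821 (0.723 to 0.931). Of these 4, Epha10 and Efna4 were higher in both mutants, Sema6d was lower in both, and Robo1 was lower in Cnga3-/-. Epha10 alone went from 223 CPM in wildtype to 1320 and 1403, while all members summed to 3021, 3851 and 4071 CPM. The higher sums thus rest mainly on Epha10, with a part from Efna4. By direction alone, 32 of 65 members with a count were higher in Cnga3-/- than in wildtype (49.2%, against 48.9% of all genes with a count), and 26 of 61 in Pde6ccpfl1 (42.6%, against 45.4%).

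**Figure D2:**
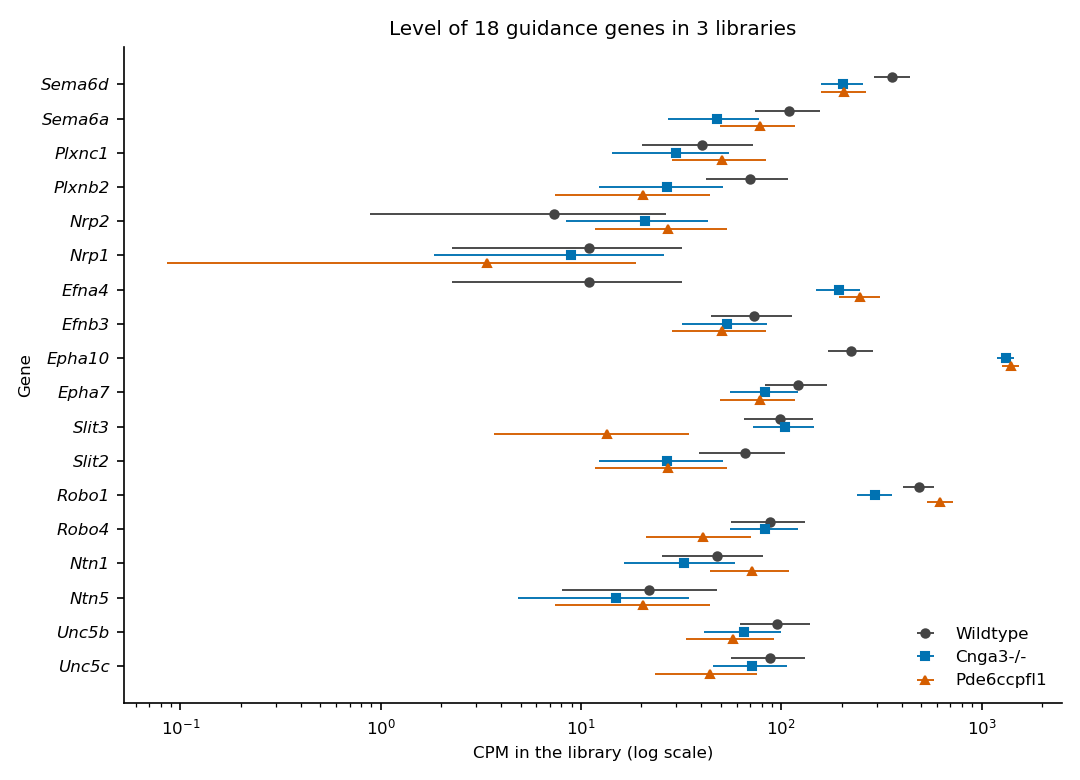
Level in CPM (x axis, log scale) of the 18 named members (y axis) in the wildtype, Cnga3-/- and Pde6ccpfl1 libraries, with exact 95% Poisson intervals for counting error. Epha10 and Efna4 are the genes whose wildtype interval lies far to the left of both mutant intervals.

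A gene entered the comparison of 2 libraries if it held 50 counts or more in the pair and was counted in 20% or more of the kept wells of either. In Cnga3-/- against wildtype, 7 members passed, 2 were at least 2-fold higher and none was at least 2-fold lower. Among all 1723 genes that passed, 11.2% were higher and 11.7% lower by that margin. In Pde6ccpfl1 against wildtype, 6 members passed, with the same 2 higher and none lower, beside 10.2% higher and 15.2% lower of 1600 genes. Pde6ccpfl1 against Cnga3-/- had 5 members that passed, 1 higher and none lower, beside 6.44% higher and 9.33% lower of 1693 genes. Both mutant comparisons share the wildtype library. Efna4 was in 5.77% of wildtype wells, so it passed only through the mutant libraries in which it is high, and a higher value against wildtype was built into its passing. Since 7 members or fewer passed, the counts say little beyond the named genes.

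The ephrins are the ligands of the Eph receptors. Efna4, which encodes a GPI-anchored A-class ephrin (GRCm38 chromosome 3, 89333390 to 89338028, minus strand), was counted 3 times in wildtype, 65 times in Cnga3-/- and 73 times in Pde6ccpfl1. This is 10.99, 194 and 247 CPM. It was found in 3 of 52, 28 of 70 and 22 of 61 wells. The level was 17.6-fold higher in Cnga3-/- than in wildtype (5.77 to 87.7) and 22.5-fold higher in Pde6ccpfl1 (7.41 to 112), and the 2 mutants differed by 1.28-fold (0.902 to 1.81). In each mutant plate the E02 well alone held 43.1% and 49.3% of the Efna4 counts. Over the 43 shared positions, which leave E02 out, the counts were 3, 24 and 26 and the ratios 8.03 (2.44 to 41.7) and 9.19 (2.82 to 47.4). Efna4 then had too few counts to be compared against wildtype by the rule above. Its exons overlap by 10.5% with 4731419I09Rik on the other strand, which had no count in any library.

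Of the other ephrins, Efnb3, a transmembrane B-class ephrin, had 20, 18 and 15 counts in the same order of libraries. Its ratios were 0.733 (0.365 to 1.46) and 0.694 (0.331 to 1.43) against wildtype. The ephrins without Efna4 summed to 40, 34 and 27 counts, with ratios of 0.692 (0.425 to 1.12) and 0.625 (0.369 to 1.04). With Efna4 the family was 1.87-fold (1.30 to 2.75) and 2.15-fold (1.49 to 3.15) higher in the mutants. Over the shared positions the log2 ratio of the family was 0.34 (-0.27 to 0.96) for Cnga3-/- and 0.31 (-0.32 to 0.94) for Pde6ccpfl1, intervals that hold 0.

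Among the Eph receptors, Epha10 led in every library. It encodes an EphA receptor known for a kinase domain that lacks catalytic activity, and lies on GRCm38 chromosome 4, 124880899 to 124917800, plus strand. Wildtype held 61 counts, Cnga3-/- 443 and Pde6ccpfl1 414, or 223, 1320 and 1403 CPM. At least 1 count was in 27 of 52 wildtype wells, 63 of 70 Cnga3-/- wells and 59 of 61 Pde6ccpfl1 wells, and the median well held 1, 4 and 5 counts. After thinning each well to 1400 counts, which left 48, 65 and 54 wells, the shares with a count were 20.8%, 69.2% and 85.2%. Epha10 was thus spread over most mutant wells, with 1 far higher well in each mutant plate, at E02. It was 5.91-fold higher in Cnga3-/- than in wildtype (4.51 to 7.86) and 6.28-fold higher in Pde6ccpfl1 (4.79 to 8.36). The mutants differed from each other by 1.06-fold (0.927 to 1.22). Over the 43 shared positions the counts were 54, 244 and 254 and the ratios 4.54 (3.37 to 6.21) and 4.99 (3.71 to 6.82). Leaving out its peak position as well gave 39, 222 and 236 counts and ratios of 5.71 (4.05 to 8.25) and 6.45 (4.58 to 9.30). Of the 4 leading members, Epha10 was the one that stayed at least 2-fold apart from wildtype with enough counts to be compared on the shared positions, where 5.70% and 6.02% of all compared genes were at least 2-fold higher.

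Epha10 moved with the cone markers between libraries, and with the rod markers, which were 2.12-fold (1.71 to 2.66) higher than wildtype in Cnga3-/- and 1.78-fold (1.41 to 2.25) higher in Pde6ccpfl1. The markers of Muller glia were at 0.626 (0.404 to 0.964) and 0.445 (0.265 to 0.730) times wildtype. Among wells without any cone marker count it stood at 258 CPM in 33 wildtype wells, 1145 CPM in 11 Cnga3-/- wells and 877 CPM in 4 Pde6ccpfl1 wells. Wells with a cone marker count gave 181, 1339 and 1422 CPM in 19, 59 and 57 wells. The mutant level of Epha10 was the higher one in both kinds of well. For Efna4 the values without a cone marker count were 13.2 (1.60 to 47.7), 124 (33.7 to 317) and 195 CPM (23.6 to 704). These rest on 2, 4 and 2 counts, and their intervals overlap. With a cone marker count they were 8.22, 201 and 249 CPM, from 1, 61 and 71 counts. The E02 wells of both mutant plates are among the wells with a cone marker count. They held 28 and 36 of these Efna4 counts, and 118 of 406 and 98 of 405 Epha10 counts. A different mix of cells in the wells and a different amount of RNA of these genes per cone cannot be told apart.

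The other 13 Eph receptors summed to 106, 153 and 145 counts, with ratios of 1.17 (0.911 to 1.52) and 1.27 (0.979 to 1.64) against wildtype. Epha7, an EphA receptor used in retinal axon mapping, had 33, 28 and 23 counts and ratios of 0.691 (0.402 to 1.18) and 0.645 (0.362 to 1.13). It went the opposite way from Epha10, with intervals that hold 1. The 5 EphB receptors summed to 38, 57 and 63 counts, with ratios of 1.22 (0.796 to 1.89) and 1.53 (1.01 to 2.36). Epha3, named after its values were seen, had 0, 11 and 5 counts, of which 1 well held 7 in Cnga3-/- and 1 well 3 in Pde6ccpfl1. After thinning, a count of an ephrin and of an Eph receptor stood together in 2 of 48 wildtype wells (4.17%, exact interval 0.509 to 14.3), 15 of 65 Cnga3-/- wells (23.1%, 13.5 to 35.2) and 11 of 54 Pde6ccpfl1 wells (20.4%, 10.6 to 33.5). Unthinned, the shares were 36.5%, 57.1% and 54.1%. Of the thinned wells, 9, 18 and 14 held an ephrin count and 18, 51 and 51 an Eph receptor count. Whether the families stood together more often than these numbers alone would give was not tested.

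**Figure D3:**
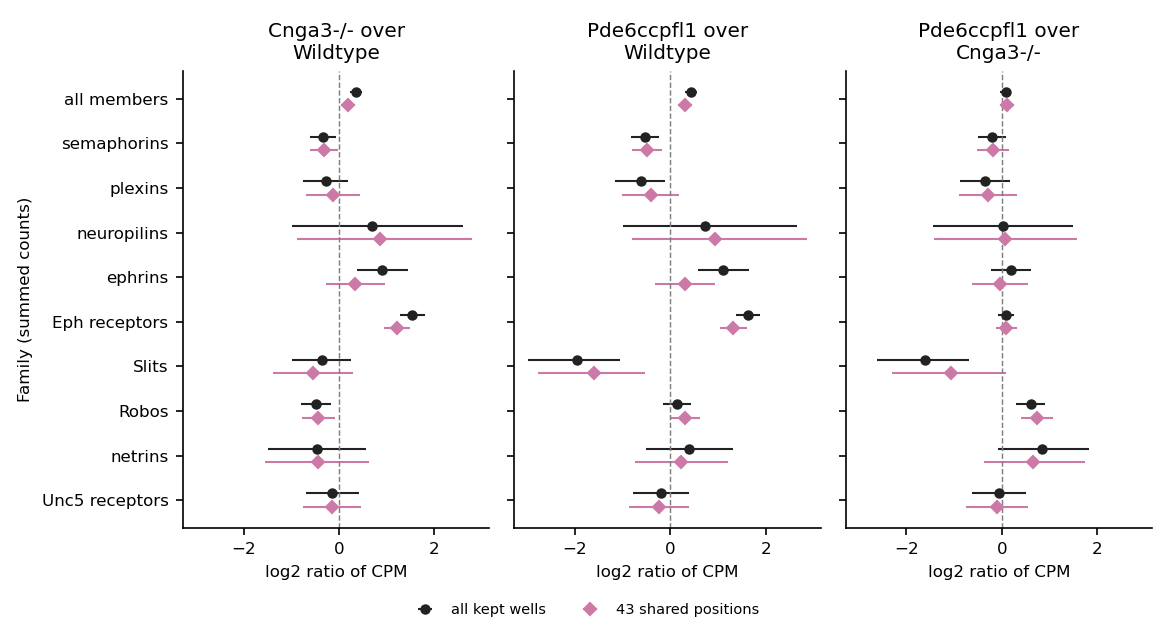
log2 ratio of CPM (x axis) of the counts summed over all members and over each family (y axis) in 3 comparisons, with exact 95% intervals. Black circles use all kept wells and pink diamonds the 43 shared positions. The intervals of the Eph receptors lie right of 0 in both mutants against wildtype under either choice, and those of the ephrins under the first alone.

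The 20 semaphorins had 230, 225 and 171 counts. Relative to wildtype, the Cnga3-/- level was 0.796 (0.660 to 0.961) and the Pde6ccpfl1 level 0.688 (0.561 to 0.842). The Cnga3-/- value, -0.33 on the log2 scale, is close to the median of all compared genes (-0.32). Its interval holds 0 with median-of-ratios scaling (-0.46 to 0.084), with TMM (-0.52 to 0.025) and with CPM without the most abundant genes (-0.49 to 0.057). For Pde6ccpfl1 the family stood at -0.54, below the median of all compared genes (-0.16), with an interval below 0 under each of these scalings. Sema6d, a transmembrane semaphorin (GRCm38 chromosome 2, 124089969 to 124667770, plus strand), had 98, 68 and 61 counts, or 359, 203 and 207 CPM. Its ratios to wildtype were 0.565 (0.408 to 0.777) in Cnga3-/- and 0.576 (0.412 to 0.801) in Pde6ccpfl1, so it was lower in both, by less than 2-fold. The single well at D06 held 40.8%, 38.2% and 31.1% of these counts. Over the 43 shared positions the ratios were 0.586 (0.414 to 0.823) and 0.596 (0.419 to 0.841). Leaving out D06 too, the counts were 56, 30 and 35 and the Pde6ccpfl1 ratio was 0.663 (0.421 to 1.03). The 19 other semaphorins had ratios of 0.968 (0.763 to 1.23) and 0.771 (0.593 to 1.00).

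Sema6a, a transmembrane semaphorin that binds A-class plexins, had 30, 16 and 23 counts. It was 0.434 times wildtype (0.221 to 0.822) in Cnga3-/- and 0.710 times (0.394 to 1.26) in Pde6ccpfl1, below the count limit in the first comparison. After thinning, the Cnga3-/- ratio turned to 0.37 on the log2 scale. The 7 secreted class 3 semaphorins went the other way in Cnga3-/-, with 21, 47 and 23 counts and a ratio of 1.82 (1.07 to 3.21), against 1.01 (0.536 to 1.93) in Pde6ccpfl1. Sema3a, named after its values were seen and a repellent that acts through neuropilin 1, had 3, 20 and 6 of those counts.

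The 9 plexins, receptors of the semaphorins, summed to 77, 78 and 54 counts, with ratios of 0.825 (0.594 to 1.14) and 0.649 (0.450 to 0.931). Over the shared positions the log2 ratio of the family in Pde6ccpfl1 was -0.41 (-1.01 to 0.19), an interval that holds 0. Plxnb2, a receptor of class 4 semaphorins, had 19, 9 and 6 counts and ratios of 0.386 (0.154 to 0.894) and 0.292 (0.0955 to 0.761). It was in 12 of 52, 8 of 70 and 3 of 61 wells. Over the shared positions it had 12, 5 and 3 counts, with ratios of 0.418 (0.115 to 1.28) and 0.265 (0.0480 to 0.982). Plxnc1, the receptor of Sema7a, had 11, 10 and 15 counts and ratios with intervals that hold 1. The neuropilins were nearly without counts: Nrp1 had 3, 3 and 1 and Nrp2 had 2, 7 and 8. At this depth no difference of either could be seen. A semaphorin and a plexin count stood together in 12 of 48, 14 of 65 and 4 of 54 thinned wells, and in 53.8%, 54.3% and 42.6% of wells before thinning. Of the thinned wells, 29, 38 and 23 held a semaphorin count and 18, 22 and 9 a plexin count.

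The Slits were lower in Pde6ccpfl1 than in both other libraries. They summed to 47, 45 and 13 counts, or 0.256 times wildtype (0.127 to 0.481) and 0.329 times Cnga3-/- (0.163 to 0.620). Slit3 (GRCm38 chromosome 11, 35121224 to 35708507, plus strand) had 27 counts in 16 wildtype wells, 35 in 22 Cnga3-/- wells and 4 in 4 Pde6ccpfl1 wells. It was 7.29-fold lower in Pde6ccpfl1 than in wildtype (ratio 0.137, 0.0349 to 0.394) and 7.69-fold lower than in Cnga3-/- (0.130, 0.0336 to 0.363), with too few counts for the rule above. Over the shared positions it had 15, 16 and 2 counts, and the ratios were 0.141 (0.0157 to 0.608) and 0.132 (0.0147 to 0.561). Slit2 had 18, 9 and 8 counts, with ratios of 0.407 (0.161 to 0.954) and 0.411 (0.155 to 0.994) against wildtype, whose intervals hold 1 under each other scaling tried. Slit1 had 2, 1 and 1 counts. For the family, the log2 ratio of Pde6ccpfl1 over Cnga3-/- on the shared positions was -1.06, with an interval that holds 0 (-2.30 to 0.078).

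Slit3 has a further limit. Its highest wells in wildtype and Cnga3-/- were at C08, where Slit3 and Robo4 had equal counts: 9 each in wildtype and 13 each in Cnga3-/-. The C08 well of Pde6ccpfl1, which did not pass the filter on cells, had 4 of each. Robo4, an endothelial Robo, had 24, 28 and 12 counts in all, with ratios of 0.463 (0.211 to 0.962) to wildtype and 0.487 (0.226 to 0.990) to Cnga3-/- in Pde6ccpfl1. With TMM scaling both intervals hold 1. On the shared positions Robo4 had 15, 11 and 11 counts and these ratios were 0.777 (0.323 to 1.81) and 1.06 (0.415 to 2.68). The 8 markers of endothelium and pericytes summed to 81, 67 and 58 counts, and their part in the Robo4 values was not tested.

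Robo1, the Slit receptor with the most counts (GRCm38 chromosome 16, 72308306 to 73046095, plus strand), followed another order than the Eph genes. Wildtype held 133 counts, Cnga3-/- 99 and Pde6ccpfl1 183, or 487, 295 and 620 CPM. A count was in 40 of 52, 35 of 70 and 46 of 61 wells. Cnga3-/- was the lowest library, at 0.606 times wildtype (0.462 to 0.792), and Pde6ccpfl1 was 1.27-fold (1.01 to 1.60) higher than wildtype. On the shared positions the Pde6ccpfl1 ratio to wildtype was 1.37 (1.07 to 1.74). Leaving out the peak position B09 too, it was 1.19 (0.885 to 1.60), an interval that holds 1. Pde6ccpfl1 was 2.10-fold higher than Cnga3-/- (1.64 to 2.71), the one compared member at least 2-fold apart between them. On the shared positions that ratio was 1.93 (1.48 to 2.53), under 2-fold, with 125, 88 and 161 counts, and it was also under 2-fold in the mean CPM over cells. The other 3 Robos summed to 50, 63 and 34 counts. In Pde6ccpfl1 they were 0.629 times wildtype (0.395 to 0.993) and 0.614 times Cnga3-/- (0.392 to 0.946), opposite to Robo1. Robo4 held 24, 28 and 12 of these counts, and had 15, 11 and 11 on the shared positions. Slit and Robo counts stood together in 6 of 48, 4 of 65 and 0 of 54 thinned wells. The last allows up to 6.60% (exact upper limit), and before thinning it was 48.1%, 34.3% and 18.03%. Of the thinned wells, 12, 12 and 1 held a Slit count and 20, 23 and 26 a Robo count. At most 1 thinned Pde6ccpfl1 well could thus hold both, so its 0 says little beyond the low Slit counts.

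The netrins Ntn1, Ntn4 and Ntn5 summed to 19, 17 and 27 counts. Ntn1, the classic secreted netrin, had 13, 11 and 21, with ratios to wildtype of 0.689 (0.279 to 1.67) and 1.495 (0.715 to 3.25). Ntn5 had 6, 5 and 6 counts, and its exons overlap by 23.4% with Sec1. Unc5 receptors, which mediate repulsion by netrins, summed to 54, 60 and 51 counts, with ratios of 0.904 (0.616 to 1.33) and 0.874 (0.584 to 1.31). Unc5b had 26, 22 and 17 counts and Unc5c 24, 24 and 13, and the intervals of both hold 1 in each comparison. Unc5d, named after its values were seen, went the other way with 4, 7 and 20 counts, a ratio of 4.63 (1.55 to 18.6) in Pde6ccpfl1 to wildtype. It was the one Unc5 receptor with an interval above 1 in that comparison.

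Per kilobase of exon, which allows levels of different genes to be set side by side, the median member stood at 3.07, 3.29 and 2.53 CPM per kilobase in wildtype, Cnga3-/- and Pde6ccpfl1. The median protein-coding gene stood at 1.68, 1.89 and 1.75. The 1092 olfactory receptor genes, which cones are not known to use, gave 4.47, 3.60 and 4.14 CPM per kilobase when pooled, with medians of 0, 0.710 and 0. Pooled in the same way, the members gave 5.79, 7.38 and 7.803, so both the pooled level and the median of the members were above those of the olfactory genes in each library. The pooled level leans on the 4 members with the most counts. Without them the other 63 gave 3.99, 3.79 and 3.28, below the pooled olfactory level in wildtype and Pde6ccpfl1. Taken gene by gene, the interval of 13, 13 and 14 members lay above the pooled olfactory level in the 3 libraries, that of 33, 48 and 32 held it, and that of 21, 6 and 21 lay below it. Epha10 stood at 31.0, 183 and 195 CPM per kilobase, Efna4 at 6.87, 121 and 155, Sema6d at 34.0, 19.2 and 19.6 and Robo1 at 29.5, 17.9 and 37.6. In wildtype the order of the first was Sema6d, Epha10 and Robo1. Efna4 had 3 counts there, and its interval (1.42 to 20.1) holds the pooled olfactory level. In both mutants Epha10 and Efna4 came first.

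**Figure D4:**
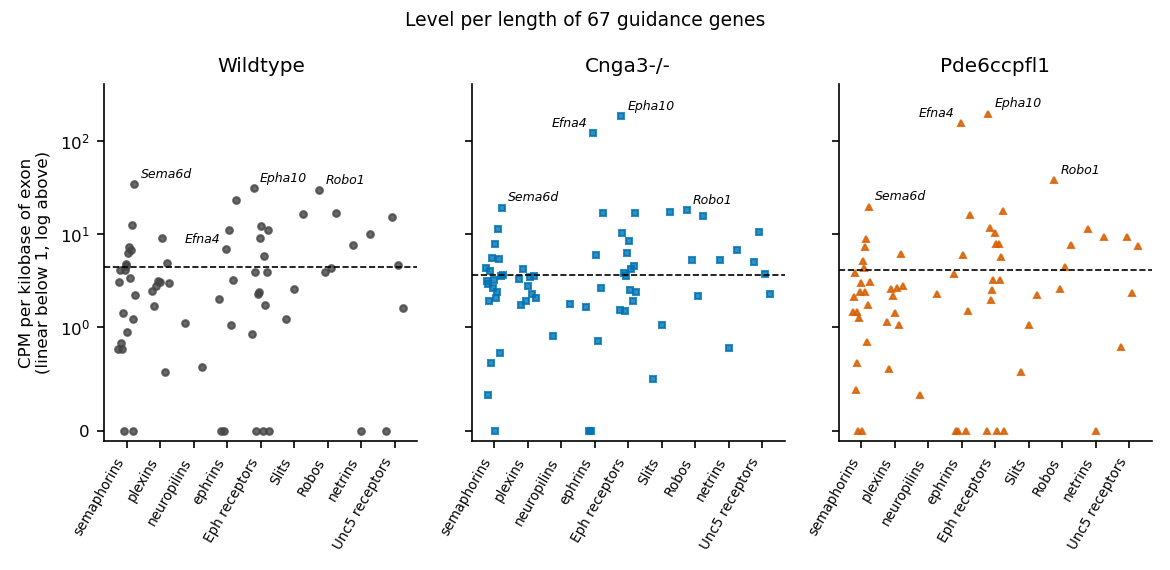
Level in CPM per kilobase of exon (y axis, linear below 1 and log above) of each member, 1 symbol per gene, by family (x axis) in the 3 libraries. The dashed line is the pooled level of the olfactory receptor genes (4.47, 3.60 and 4.14), and Epha10 and Efna4 stand highest in the 2 mutant libraries.

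Other genes of these pathways, such as intracellular adaptors and co-receptors, were counted as a list of 72, of which 70 are in the table and 68 had a count. They summed to 997, 1191 and 1039 counts, with ratios of 0.972 (0.893 to 1.06) and 0.965 (0.884 to 1.05) to wildtype. Of the 11, 10 and 12 that passed the rule in the 3 comparisons, Enah was at least 2-fold higher in both mutants. That is 1 of 11 and 1 of 10, beside 11.2% and 10.2% of all compared genes. Enah encodes an actin regulator of the Ena/VASP family, and had 6, 69 and 87 counts, with ratios of 9.36 (4.09 to 26.4) and 13.4 (5.92 to 37.6). It was in 11.5% of wildtype wells, and so passed only through the mutant libraries, in which it is high. A single well held 44.9% of its Cnga3-/- counts and 40.2% of its Pde6ccpfl1 counts. Rnd1 and Lrig2 were at least 2-fold lower in Pde6ccpfl1 than in wildtype, with 44, 42 and 19 counts and 77, 81 and 38 counts. They are 2 of the 10 compared there, beside 15.2% of all compared genes. Rnd1 passed only through the wildtype library, in which it is high, and a single well held 54.5% of its wildtype counts and 47.4% of its Pde6ccpfl1 counts. For Lrig2 these shares were 28.6% and 31.6%. None was 2-fold apart between the mutants.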

How the data were processed

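Raw counts for each gene in each well, deposited by the authors, were used as they stand. Per the submitters' processing notes, featureCounts (no version) and GRCh38 were used. The symbols are those of mouse genes, so coordinates and exon lengths were taken from GENCODE M21 (GRCm38) by symbol, and how the reads were aligned is not given in the sources used here. Whether molecular identifiers or strand were used is likewise not given, so counts may not be independent molecules.

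Wells were matched to libraries by column name and kept with at least 500 genes counted and at most 30% mitochondrially encoded counts, leaving out 9 wells of the wildtype plate, 6 of Cnga3-/- and 10 of Pde6ccpfl1. Doublets were not called, as wells received sorted single cells. Kept wells had 1061 to 16935 counts. Counts were summed per library and scaled to CPM. Ratios have an exact interval given the summed count of both libraries, CPM an exact Poisson interval and shares an exact Clopper-Pearson interval, all at 95% and for counting error only. A library at 0 was set to a floor of 3 counts. Cells were thinned to 1400 counts (seed 7). The ratio code was tested on simulated data. Named members are those with at least 100 counts, the 2 with the most counts in each of the 9 families, those that passed the rule for comparison and were at least 2-fold apart, and those at 0. The members and lists were chosen with earlier results of these data known. Alternatives were other cell filters, scalings (edgeR 4.0.16 for TMM), gene filters and sets of wells. Those on well positions and on wells with a cone marker count were added after seeing the data. Python 3.11.15, numpy 2.4.6, scipy 1.17.1 and pandas 2.3.3 were used.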

Additional observations from a re-analysis of the deposited data

How the results depend on the processing

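With 1 library per genotype, there was no replicate to leave out. No paired analysis was possible because each group has 1 library and the result comes from no test. Of the summary values under all alternatives, 362 stayed close to the first value, 52 moved and 7 changed direction. All values below are log2 ratios, in the order named, unless called counts.

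Without the 2 members with the most counts of each set, the sum over all members was -0.048 (Cnga3-/- over wildtype), -0.17 (Pde6ccpfl1 over wildtype) and -0.13 (Pde6ccpfl1 over Cnga3-/-). The ephrins were then -0.62, -0.85 and -0.23, the Robos 0.13, -0.35 and -0.48 and the Unc5 receptors 1.51, 2.28 and 0.77. The Eph receptors were 0.48 and 0.63 over wildtype, and the semaphorins 0.17 in Cnga3-/- over wildtype and -0.51 between the mutants. This alternative leaves out the genes with the most counts in each set.

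In thinned cells, Pde6ccpfl1 over wildtype was 1.91 for the Eph receptors, 0.23 for all members, -1.34 for the plexins and -4.08 for the Slits. Cnga3-/- over wildtype was -2.44 for the netrins and -1.44 for the neuropilins, both from very few counts, and 0.37 for Sema6a. Between the mutants it was -3.64 for the Slits, 2.27 for the netrins, -0.90 for the plexins and 0.0044 for Robo4. Both Slit values rest on 1 of 54 thinned Pde6ccpfl1 wells with a Slit count. The netrin value between the mutants rests on 1 of 65 thinned Cnga3-/- wells with a netrin count. Thinning leaves fewer counts, and no other cause was tested. Only 3, 3 and 2 members passed the rule for comparison in the 3 comparisons. Members at least 2-fold higher numbered 1, 1 and 0, beside 11.8%, 13.6% and 8.29% of all genes passing. At least 2-fold lower were 1 in Cnga3-/- and 1 in Pde6ccpfl1 over wildtype, beside 11.3% and 13.3%.

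Over well positions kept in all 3 plates, Cnga3-/- over wildtype was 0.19 for all members, 1.21 for the Eph receptors and 0.34 for the ephrins. Pde6ccpfl1 over wildtype was 1.31 for the Eph receptors and 0.31 for the ephrins, and Robo4 between the mutants was 0.078. The counts of members at least 2-fold higher were 1, 1 and 0 of the 4, 3 and 4 that passed, beside 5.70%, 6.02% and 6.18% of all genes passing. Without the peak positions too, the Eph receptors were 1.27 in Cnga3-/-, and all members 0.28 and the ephrins 0.50 in Pde6ccpfl1. In wells with a cone marker count, Cnga3-/- over wildtype was -1.16 for the Slits, -0.73 for the Unc5 receptors and 2.77 for the netrins. The netrins were 3.53 in Pde6ccpfl1 over wildtype. Both netrin values rest on very few wildtype counts, from 19 wells. With all kept wells the netrins were -0.46 and 0.40, with intervals that hold 0. The cause was not tested.

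Gene filters set how many members could be counted. With at least 10 counts, 18, 19 and 13 members passed, 3 in each comparison were at least 2-fold higher and 3, 4 and 3 at least 2-fold lower. Of all genes passing, 13.8%, 12.7% and 8.15% were higher and 15.03%, 18.6% and 11.1% lower. At least 200 counts left 2 members in each comparison and 1 higher in each mutant over wildtype, beside 10.6% and 10.7% of all genes. With no filter beyond a count in each library, 57, 55 and 58 members passed, 9, 5 and 6 were higher and 6, 13 and 12 lower, beside 16.9%, 14.8% and 15.5% higher and 18.6%, 20.9% and 15.4% lower of all genes. The mean CPM over cells left 0 higher between the mutants. Median-of-ratios scaling, which raised the median of all compared genes in Cnga3-/- over wildtype by 0.14, put all members at 0.49 there. Depth limits members with fewer than 10 counts to no statement on direction.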
